A study of Homo sapiens with 65 samples.

Results

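Human embryonic stem cells lacking the DNA-binding domain of RUNX1 were set against their parental line at the 3 earliest times of a differentiation towards blood-forming mesoderm, before any cells were sorted. The 24 libraries, of 65 in the series, were those of day 0, day 2 and day 4 whose titles give the mesoderm protocol, unsorted cells, and KO or WT, with 4 libraries per line and day. Both lines derive from H9, an embryonic stem cell line, and both carry a SOX17 mCHERRY and a RUNX1C GFP reporter on 1 allele each. The KO line additionally has the DNA-binding domain deleted by CRISPR on both RUNX1 alleles, and the WT line is unedited at that domain. The sources used here do not say whether the KO line is 1 clone. The deletion and any other difference between the 2 lines cannot be told apart. The genotype field names the deletion in the KO samples of day 0 but not in those of day 2 and day 4, and these were grouped by title. The medium of both lines was STAPEL with BMP4 at 20 ng/ml, ACTIVIN A at 7.5 ng/ml, VEGF at 25 ng/ml, SCF and FGF2 at 10 ng/ml for the first 4 days. SB431542 at 3 µM, an inhibitor of the ACTIVIN and Nodal receptors, and CHIR 99021 at 3 µM, an activator of Wnt signalling, were present between day 2 and day 4. The labels also list IGF2 protein among the factors given from day 4.

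RUNX1 is a transcription factor that binds DNA through its Runt domain, with CBFB as a non-DNA-binding partner that strengthens the contact. In the vertebrate embryo it is required when endothelium gives rise to blood stem and progenitor cells, a step that comes after mesoderm has formed. Gastrulating mesoderm is marked by TBXT and MIXL1, lateral mesoderm by HAND1, and the endothelial and blood lineage that follows by KDR, TAL1, CDH5 and CD34. The comparison asked which transcripts depend on RUNX1 before that endothelium is sorted out.

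The libraries held between 10366048 and 17341427 counts, and 21612 genes were tested. No 2 libraries of a group were copies of each other: over 36 pairs, chi-square divided by the number of genes was at least 4.469 and at most 84.78. In both lines the day 0 library numbered 1 stood apart, as did KO number 4 and WT number 3 of day 4. The share of counts from the mitochondrial genome at day 4 was 4.42 ± 0.786% in KO cells and 3.45 ± 0.284% in WT cells (SD, n = 4 each), with no overlap between the lines. At day 2 it was 4.44 ± 0.903% in KO cells and 5.26 ± 0.354% in WT cells, and at day 0 it was 4.00 ± 0.447% in KO cells and 3.44 ± 0.561% in WT cells. Below, a level is in CPM, the counts of a gene scaled to a common library size by TMM factors. An effect is a log2 fold change of KO over WT with an approximate standard error derived from its test. A gene is called at a Benjamini-Hochberg adjusted p under 0.05 by the quasi-likelihood test of edgeR. The labels do not say that libraries of a group came from separate cultures, so p-values measure the spread between libraries, which may be technical.

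RUNX1 itself, on chromosome 21 (34787801 to 36004667, minus strand, GRCh38), was nearly silent at day 0 and abundant at day 4 in both lines. At day 0 it stood at 1.84, 0.547, 0.519 and 0.874 CPM in the KO libraries, against 7.86, 1.45, 0.773 and 1.19 CPM in the WT libraries. The lines overlapped, each KO library lay below the WT library of its number, and WT number 1 was far above the other libraries. At day 2 RUNX1 stood at 6.09, 8.17, 23.4 and 3.22 CPM in KO libraries, against 9.42, 9.62, 13.5 and 10.2 CPM in WT libraries. Thus 3 KO libraries lay below every WT library and KO number 3 above all of them. At day 4 the levels were 65.4, 22, 33.9 and 3.05 CPM in KO libraries and 67.6, 35.6, 27.1 and 35.3 CPM in WT libraries. KO number 1 was close to the highest WT library, while KO number 4 was the lowest of all. The effect was -1.56 ± 0.88 at day 0, -0.08 ± 0.68 at day 2 and -0.41 ± 0.65 on the last day. None was called (adjusted p = 1 each with edgeR). With 1 library left out the effect at day 0 ran from -2.12, without KO number 1, to -0.24, without WT number 1. At day 4 it ran from -1.07, without KO number 1, to -0.03, without KO number 4, and was -0.06 without WT number 1. Their 95% intervals were wide, from -3.38 to 0.27, from -1.49 to 1.34 and from -1.76 to 0.94. Counts per gene cover the whole locus and do not show whether the deleted exons were transcribed, so these levels do not check the deletion.

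In the sorted SOX17-positive endothelium of day 7 RUNX1 did not overlap between the lines, as was the case for 1.98% of all genes below WT. It averaged 35.8 ± 5.63 CPM in KO cells and 105 ± 29.8 CPM in WT cells (SD, n = 4 each), and the highest KO library, at 41.6 CPM, lay below the lowest WT library, at 87.7 CPM. In a fit of the 16 libraries of day 4 and day 7 the effect was -0.40 ± 0.52 at day 4 and -1.56 ± 0.53 at day 7, neither called (adjusted p = 1 each, edgeR). The difference between these effects was -1.16 ± 0.73, with a 95% interval from -2.71 to 0.40, and was not called (adjusted p = 1, edgeR). Day and sort cannot be told apart in it. That fit called 8 of 21421 genes at day 7 (0.0373%) and 0 at day 4.

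No difference was called for the partner or the relatives of RUNX1. CBFB at day 2 was 92.1, 101, 103 and 91.0 CPM in KO libraries and 77.0, 87.5, 72.0 and 79.1 CPM in WT libraries. All KO libraries lay higher, as was the case for 4.42% of all genes. At day 4 it was 104, 87.0, 70.6 and 72.8 CPM in KO libraries and 124, 106, 83.5 and 105 CPM in WT libraries, which overlapped. Its effects were 0.30 ± 0.15 and -0.32 ± 0.15 on these 2 days, opposite in sign and neither called (adjusted p = 1, edgeR). The GC content of CBFB is 40.6%. A bin of 1655 genes with a median GC of 40% had median effects of 0.125 at day 2 and -0.0906 at day 4. RUNX2, the factor of bone formation, had effects between -0.17 and 0.02 on the 3 days. RUNX3, expressed in lymphoid and neuronal cells, stood at 16.9, 7.70, 7.77 and 6.57 CPM in KO libraries of day 4, against 12.4, 7.49, 3.28 and 3.88 CPM in WT libraries. In both lines library number 1 was the highest, and the effect of 0.53 ± 0.40, with a 95% interval from -0.31 to 1.37, was not called.

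**Figure D1:**
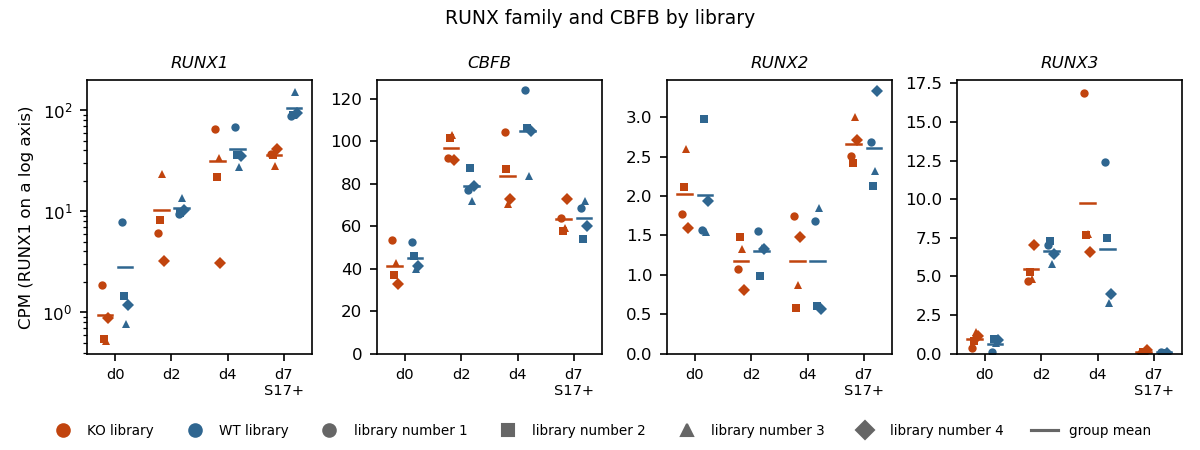
CPM of RUNX1 (log axis), CBFB, RUNX2 and RUNX3 (linear axes) in each library at day 0, 2 and 4 and in SOX17-positive (S17+) cells of day 7, with KO left of WT, symbols for library numbers and lines for group means. RUNX1 overlaps between KO and WT on the first 3 days and is apart at day 7, at 28.1 to 41.6 CPM in KO and 87.7 to 150 CPM in WT.

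Across all genes the main fit, which shared 1 estimate of spread per gene over the 3 days, called no difference on any day. With edgeR 0 of 21612 genes were called on each of them (0%). An unadjusted p under 0.05 was reached at day 0 by 146 genes (0.676%), whereas day 2 had 973 (4.5%) and day 4 had 987 (4.57%). The share at day 0 lay far under the threshold of 0.05, so the test was strict there. A lack of calls does not show that no gene differs. DESeq2 called 0, 15 and 2 genes on these days. A fit of the 8 libraries of day 2 alone called 143 genes. The 95% interval lay within 2-fold in either direction for 77.9% of genes at day 0, and for 74.3% and 73.6% on the later days. These intervals rest on an approximate standard error, the effect divided by the square root of its F statistic. It can be far too small where an effect is near 0. GSC, a streak gene, had an average effect of -0.0027 ± 0.032 but -1.53 ± 1.35 at day 0. Counts of intervals within 2-fold are therefore no firm bound on effects. The average of the 3 days gave 0 called genes (0%) with 312 at an unadjusted p under 0.05 (1.44%), and 5 calls by DESeq2. The test of the difference between the KO effects of 2 days gave 0 calls (0%) for day 2 minus day 0, with 925 genes at an unadjusted p under 0.05 (4.28%). It gave 0 calls (0%) for day 4 minus day 2, with 1743 such genes (8.06%), and 0 (0%) for day 4 minus day 0, with 181 (0.837%). DESeq2 called 0, 165 and 0 genes in these 3 tests.

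The pluripotency genes described next overlapped between the lines. POU5F1, a core pluripotency factor, stood between 351 and 411 CPM in KO libraries and between 333 and 499 CPM in WT libraries at day 0. By day 4 it stood between 1.75 and 6.10 CPM in KO libraries and between 1.32 and 5.25 CPM in WT libraries. SOX2, its partner, was 319, 190, 203 and 191 CPM in KO libraries of day 0, against 388, 210, 246 and 205 CPM in WT libraries, and library number 1 was highest in both lines. Each KO library lay below the WT library of its number. In the pluripotency list 0 of 14 tested members were called on any day, and the intervals of all 14 lay within 2-fold at day 0.

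At day 2 the genes of the primitive streak were on in both lines. TBXT, the founding T-box factor of mesoderm, was 296, 245, 222 and 499 CPM in KO libraries and 337, 223, 399 and 276 CPM in WT libraries. MIXL1, a homeobox factor of the streak, was 987, 960, 1064 and 935 CPM in KO libraries and 773, 1240, 1088 and 750 CPM in WT libraries. MESP1, a factor of nascent mesoderm, was 151, 147, 122 and 135 CPM in KO libraries and 134, 171, 121 and 194 CPM in WT libraries. For all 3 genes the lines overlapped, with effects of 0.03 ± 0.32, 0.04 ± 0.29 and -0.16 ± 0.23. Of 14 streak genes 0 were called, 10 had intervals within 2-fold, and the list's median effect was -0.0433, against -0.0162 over all genes. In the lateral mesoderm list 0 of 14 were called and 13 intervals lay within 2-fold. HAND1 of this list was 703, 758, 705 and 312 CPM in KO libraries of day 2 and 608, 694, 501 and 819 CPM in WT libraries, so that KO number 4 was the lowest of the 8. In the same library TBXT was the highest of the 8.

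At day 4 endothelial and blood progenitor genes were on, and the spread within the KO line was wide. CDH5, the adhesion molecule of endothelial junctions, was 80.9, 73.4, 235 and 13.2 CPM in KO libraries, against 139, 123, 92.0 and 56.9 CPM in WT libraries. PECAM1, another junction molecule, was 46.05, 47.5, 164 and 6.64 CPM in KO libraries and 103, 88.6, 57.98 and 66.5 CPM in WT libraries. For both genes KO number 3 was the highest and KO number 4 the lowest of the 8 libraries. TAL1, a factor required for blood formation, was 54.1, 28.7, 116 and 23.8 CPM in KO libraries and 82.6, 63.3, 57.5 and 50.2 CPM in WT libraries. GATA2, a factor of blood stem cells and their endothelial precursors, was 15.4, 15.5, 87.2 and 13.3 CPM in KO libraries and 35.4, 34.5, 23.9 and 43.01 CPM in WT libraries. For GATA2, 3 KO libraries lay below every WT library and KO number 3 above every one. The effects were -0.03 ± 0.48 for CDH5, -0.26 ± 0.49 for PECAM1, -0.19 ± 0.32 for TAL1 and -0.06 ± 0.42 for GATA2, with adjusted p = 1 each (edgeR). Leaving out 1 library of day 4 at a time moved the effect of CDH5 between -0.86, without KO number 3, and 0.33, without KO number 4. That of TAL1 moved between -0.82 and 0.06 without the same libraries, so no direction can be read for either gene.

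KDR, the receptor of VEGF, was 949, 1042, 1858 and 791 CPM in KO libraries of day 4 and 1721, 1430, 1125 and 1358 CPM in WT libraries. Here too 3 KO libraries lay below all WT libraries and KO number 3 above them, with an effect of -0.28 ± 0.27. In the endothelium list 0 of 15 tested genes were called at day 4, 7 estimates were positive and 8 negative, and the median was -0.0325, against 0.0133 over all genes. In the list of blood and endothelial progenitor factors 0 of 11 were called, 3 estimates were positive and 8 negative, with a median of -0.144. In these mixed cells a smaller share of a cell type and less RNA per cell cannot be told apart.

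Genes known to act downstream of RUNX1 in blood were low at day 4. GFI1, a repressor of the endothelial program, was 0.757, 0.449, 10.8 and 0.156 CPM in KO libraries, against 1.02, 2.94, 1.43 and 3.04 CPM in WT libraries. MYB, a factor of definitive blood, was 6.05, 3.85, 18.9 and 0.860 CPM in KO libraries and 7.22, 6.17, 5.19 and 7.77 CPM in WT libraries. For GFI1, 3 KO libraries again lay below all WT libraries, and KO number 3 was above them for both genes. The effects were 0.54 ± 0.75 and 0.17 ± 0.54. SPI1, the myeloid factor PU.1, stood at or below 1.05 CPM in every KO and at or below 0.656 CPM in every WT library. PTPRC, the pan-leukocyte antigen CD45, had no count in any library of day 4, which with the limit of 3 counts over the KO libraries allows up to 0.0479 CPM. In the blood list 0 of 10 tested genes were called on any day, and 1 interval lay within 2-fold at day 4.

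Mesenchymal genes varied widely between the libraries of day 4. COL3A1, a fibrillar collagen, was 1377, 4661, 2042 and 165 CPM in KO libraries and 2369, 4083, 188 and 3124 CPM in WT libraries, low in KO number 4 and in WT number 3 alike. LUM, a matrix proteoglycan, was 6.64, 44.1, 34.99 and 6.41 CPM in KO libraries and 9.63, 58.9, 8.89 and 24.15 CPM in WT libraries. Summed over the mesenchyme list the level ran from 1763 to 8505 CPM in KO libraries and from 1189 to 7070 CPM in WT libraries. The summed level of the endothelium list ran from 1839 to 4460 CPM in KO libraries and from 2158 to 4275 CPM in WT libraries. Summed endoderm markers ran from 54.7 to 173 CPM in KO and from 90.3 to 275 CPM in WT libraries. The part that such differences in cell types play in the single-gene effects was not tested.

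**Figure D2:**
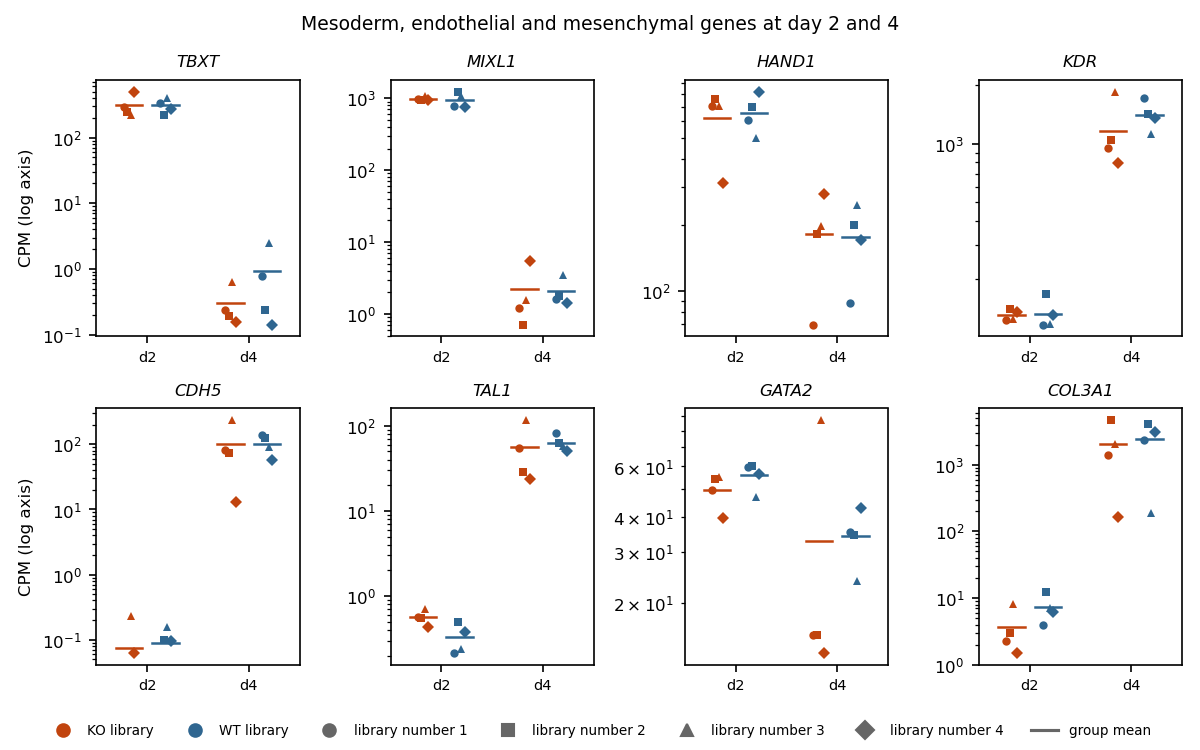
CPM on log axes of genes of the streak (TBXT, MIXL1), lateral mesoderm (HAND1), endothelium and blood progenitors (KDR, CDH5, TAL1, GATA2) and mesenchyme (COL3A1) in each library at day 2 and day 4, KO left of WT, with lines for group means; libraries at 0, which occur for CDH5 at day 2, are not drawn. KO number 3 (triangle) is the highest library of day 4 for CDH5, at 235 CPM, and KO number 4 (diamond) the lowest, at 13.2 CPM.

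Of the remaining lists, the CDX and HOXA genes, which give mesoderm its position along the body axis, had 12 of 14 estimates below 0 at day 4 with a median of -0.18, and 11 of 14 above 0 at day 0 with a median of 0.652. At day 0 their summed level was under 6 CPM in every library, and 0 were called on any day. The cell cycle list had 0 of 12 called and all 12 intervals within 2-fold on each day, with medians between -0.0218 and -0.0158. The 13 transcripts of the mitochondrial genome had estimates above 0 at day 0, below 0 at day 2 and above 0 at day 4 for all 13, with medians of 0.226, -0.229 and 0.329, and 0 were called. Over all 20 lists 193 of 208 genes passed the filter on low counts, and 0 were called on any day. An unadjusted p under 0.05 was reached by 0 of them at day 0, 1 at day 2 and 10 at day 4, where the share over all genes was 0.676%, 4.5% and 4.57%. At day 4 the members' share was thus near that of all genes. The 10 were 6 mitochondrial transcripts, CBFB, IGF2, TBXT and GDF15. The day 4 effect of TBXT was -1.54, lower in KO cells, but the lines overlapped and it was not called. GDF15, a secreted stress factor and p53 target, ran from 1.58 to 60.5 CPM in KO libraries and from 2.16 to 11.5 CPM in WT libraries.

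Among the imprinted genes, H19 was apart between the lines at day 4, and its neighbour IGF2 overlapped. H19 is a long noncoding RNA normally expressed from the maternal chromosome (1995176 to 2001470, minus strand), and IGF2 is a growth factor normally expressed from the paternal chromosome (2129112 to 2149603, minus strand). H19 had 0 counts in all 4 KO libraries of day 4, against 10, 10, 24 and 15 counts in the WT libraries, or 0.602, 0.599, 1.43 and 1.06 CPM. With 3 counts over the 4 KO libraries as the limit, it was at least 19.3-fold lower in KO cells. At day 0 and at day 2 it had 0 counts in all 16 libraries of both lines. H19 was too low for the filter of the main test. An exact two-sided permutation test of the day 4 levels gave p = 0.0286, the smallest that 4 libraries against 4 can give over 70 arrangements. Any gene whose lines lie fully apart gets this value, so it adds nothing to the counts above. At day 4, 1.46% of 24206 genes lay below WT without overlap and 1.03% above. Without the filter on low counts the adjusted p for day 4 was 0.130 over 42907 genes (edgeR). The absence held after the sort: H19 had 0 counts in the KO libraries of all 3 sorted fractions, against totals of 65 counts in WT cells of day 7 that were SOX17-positive, 34 in those that were SOX17-negative and 129 in SOX17-positive cells of day 12. Among all 58302 genes, H19 was the 1 gene with 0 counts in every KO library and 5 or more in each WT library of day 4. No gene was so placed at day 0 or day 2, and none had the opposite pattern on any day. This count was chosen after the values were seen.

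IGF2 at day 4 was 294, 1399, 820 and 2853 CPM in KO libraries, against 213, 661, 372 and 445 CPM in WT libraries. The lines overlapped. The effect was 1.67 ± 0.41 with a 95% interval from 0.83 to 2.51, and it was not called (adjusted p = 0.731, edgeR). Without KO number 1 it was 2.01 with an adjusted p of 0.0195 (edgeR), and without KO number 4 it was 0.99 with an adjusted p of 0.635. At day 0 and day 2 IGF2 was under 4 CPM in every library. Counts of INS-IGF2, a readthrough gene that overlaps IGF2, cannot be told apart from those of IGF2. In SOX17-negative cells of day 7 IGF2 was 971 ± 193 CPM in KO cells (SD, n = 3) and 346 ± 96.1 CPM in WT cells (n = 4), without overlap. In SOX17-positive cells of day 7 it was 1633 ± 613 CPM in KO cells and 785 ± 345 CPM in WT cells (n = 4 each), which overlapped. Of the 12 imprinted genes listed 9 were tested and 0 were called, with 5 positive and 4 negative estimates at day 4. The other tested members, among them MEST, PEG10 and SNRPN, had effects between -0.16 and 0.49.

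Outside the lists, CXCL5 had low levels in KO cells at day 4; it was picked after its values were seen. This chemokine, which attracts neutrophils, was 1.75, 1.80, 3.56 and 1.33 CPM in KO libraries and 5.47, 8.09, 6.20 and 2.75 CPM in WT libraries. The lines overlapped through KO number 3 and WT number 4. Its effect was -1.40 ± 0.34 (adjusted p = 0.731, edgeR).

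**Figure D3:**
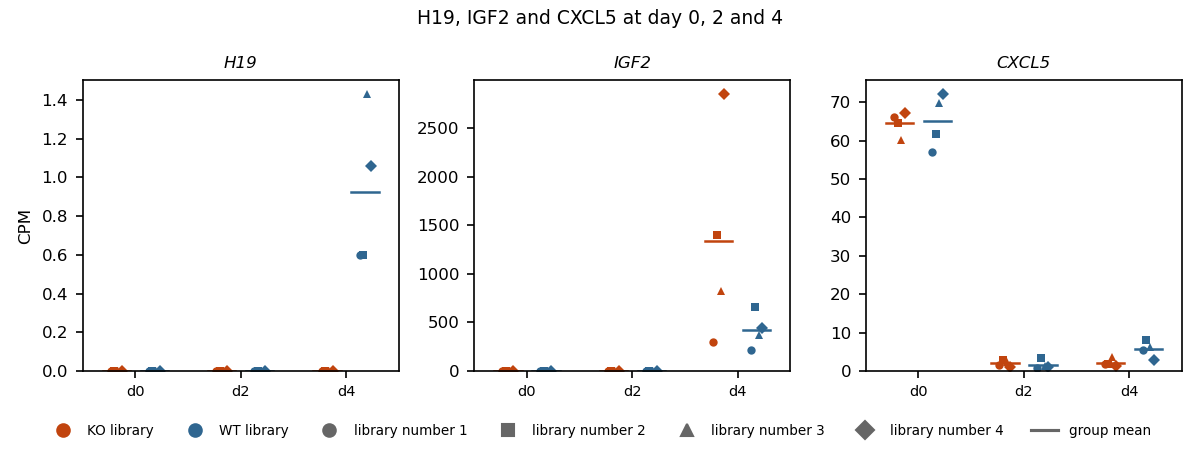
CPM on linear axes of H19, IGF2 and CXCL5 in each library at day 0, 2 and 4, KO left of WT, with symbols for library numbers and lines for group means. At day 4 H19 is at 0 in the 4 KO libraries and between 0.599 and 1.43 CPM in the WT libraries, and IGF2 reaches 2853 CPM in KO number 4.

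Another search asked which genes separated the 2 lines at every other stage and how they stood at day 2 and day 4. Over the 31 libraries of day 0, of both day 7 fractions and of SOX17-positive day 12, 4 of 24206 genes had all KO libraries on 1 side of all WT libraries at every stage. They were ZNF568, ZNF439 and HSD17B7P2, below WT, and SPATA22, above WT. Day 2 and day 4 played no part in the choice. At the stages that chose them, the share of all genes lying below WT without overlap was 0.558% at day 0, 1.98% in SOX17-positive and 2.48% in SOX17-negative cells of day 7 and 1.22% at day 12. The share lying above was 0.537%, 2.04%, 2.23% and 1.2% in the same order. At day 4 all 4 again lay fully apart in the same direction, where 1.46% of all genes lay below and 1.03% above WT without overlap. At day 2 this held for 2 of 4, ZNF568 and HSD17B7P2, where 2.49% of all genes lay below and 4.42% above. The genotype field of the KO libraries of day 2 and day 4 does not name the deletion. These libraries sided with the labelled KO libraries of the other stages at 6 of 8 gene and day combinations. Of these combinations 2 came from HSD17B7P2, which passed the filter on low counts only through the sorted WT cells, where it was high. Its placements are therefore no support for the grouping. Without it, ZNF568, ZNF439 and SPATA22 lay apart at day 4, and of these only ZNF568 at day 2. ZNF568 and HSD17B7P2 were the 2 genes (0.00826% of all) that did not overlap in 1 direction on day 0, day 2 and day 4 together.

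HSD17B7P2, on chromosome 10 (38356380 to 38378505, plus strand), is a transcribed pseudogene of HSD17B7, an enzyme of cholesterol synthesis. It had 2, 1, 0 and 0 counts in KO libraries of day 0, against 8, 4, 8 and 4 in WT libraries. At day 2 it had 3, 0, 0 and 1 counts in KO libraries and 9, 4, 5 and 5 in WT libraries, and at day 4 it had 1, 0, 0 and 0 counts in KO libraries and 8, 5, 8 and 5 in WT libraries. It was too low for the main test. Day 0 took part in its choice and gets no test. Exact permutation tests gave p = 0.0286 at day 2 and at day 4, the smallest possible, which any gene without overlap gets. The gene was kept only through its level in sorted WT cells, so these p-values add nothing to the counts above. Without the filter on low counts the effect was -2.66 ± 0.69 at day 2 (adjusted p = 0.962, edgeR) and -4.08 ± 0.83 at day 4 (adjusted p = 0.416, edgeR). In sorted SOX17-positive cells of day 12 it averaged 0.0156 CPM in KO cells and 3.22 CPM in WT cells. Reads of a pseudogene and its parent can be exchanged in counting. HSD17B7 had effects of 0.14 ± 0.22, 0.19 ± 0.21 and 0.41 ± 0.22 on the 3 days, none of them called.

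ZNF568, ZNF829, ZNF439 and ZNF528 are KRAB zinc-finger genes of chromosome 19, from a family of DNA-binding repressors that mostly act on transposable elements. ZNF568 (36916329 to 36998700, plus strand), whose mouse counterpart represses a placental transcript of Igf2, was 0.568, 1.09, 0.742 and 1.11 CPM in KO libraries of day 0, against 1.504, 1.99, 1.74 and 1.56 CPM in WT libraries. By day 2 it was 1.84, 2.57, 2.34 and 1.73 CPM in KO libraries and 3.12, 3.04, 2.83 and 2.65 CPM in WT libraries. At day 4 it was 1.92, 2.31, 1.52 and 0.938 CPM in KO libraries and 4.45, 3.06, 3.16 and 2.68 CPM in WT libraries. All KO libraries lay below all WT libraries on each day. The effect was -0.47 ± 0.24 at day 2 (adjusted p = 1, edgeR) and -0.98 ± 0.24 at day 4 (adjusted p = 0.731, edgeR).

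ZNF829 (36888124 to 36916291, minus strand) starts 38 bases from ZNF568 and points the other way. It was chosen after its values were seen, since it had the smallest p of the average. It was 3.05, 1.64, 1.56 and 1.27 CPM in KO libraries of day 0 and 4.85, 2.67, 3.35 and 3.28 CPM in WT libraries. On day 2 levels were 3.36, 2.49, 3.04 and 3.16 CPM in KO libraries, against 6.16, 4.71, 5.28 and 5.48 CPM in WT libraries. At day 4 it was 1.34, 2.12, 1.58 and 1.09 CPM in KO libraries and 2.95, 2.58, 3.34 and 2.90 CPM in WT libraries. The lines were apart at day 2 and day 4 and overlapped at day 0, where each KO library still lay below the WT library of its number. Of all genes 2.49% lay below WT without overlap at day 2 and 1.46% at day 4. The average effect of -0.89 ± 0.14, with a 95% interval from -1.18 to -0.60, had an adjusted p of 0.0509 (edgeR), just above the threshold. DESeq2 called it, with an adjusted p of 1.21e-05. In SOX17-negative cells of day 7 ZNF829 was 1.34 ± 0.550 CPM in KO cells (SD, n = 3) and 1.34 ± 0.504 CPM in WT cells (n = 4), which overlapped. In SOX17-positive cells of day 7 the effect was -0.57 ± 0.28 (adjusted p = 1, edgeR), with the lines overlapping. ZNF345, which overlaps ZNF829 on the other strand, had effects of 0.18 ± 0.24, 0.13 ± 0.25 and -0.05 ± 0.23 on the 3 days.

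The bases between the annotated starts of ZNF829 and ZNF568 are shown because both genes lay low in KO cells and start on either side of them. They are chr19:36916292-36916328 (GRCh38.p14, plus strand, sequence from RefSeq), 37 bases with a GC content of 75.7%.
ZNF829 to ZNF568: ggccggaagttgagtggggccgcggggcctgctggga
The core letters of the RUNX motif, TGTGGT, were searched on both strands, and none occurred, so no base is in capitals. In the 300-base windows around the starts of ZNF829, ZNF568, ZNF439, ZNF528 and SPATA22, all 5 matched in RefSeq, the letters did not occur either. Of 35116 such windows in the genome 13.1% held them.

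ZNF439, on another part of chromosome 19 (11848726 to 11883750, plus strand), was 0.213, 0.342, 0.965 and 0.715 CPM in KO libraries of day 0 and 1.37, 1.60, 2.12 and 2.16 CPM in WT libraries. By day 2 it was 0.571, 0.778, 1.56 and 1.55 CPM in KO libraries and 1.70, 1.77, 1.10 and 3.12 CPM in WT libraries, where WT number 3 made the lines overlap. By day 4 it was 1.51, 1.73, 1.52 and 1.09 CPM in KO libraries, against 2.65, 4.08, 1.97 and 3.74 CPM in WT libraries. The effect was -0.77 ± 0.39 at day 2 and -1.07 ± 0.36 at day 4 (adjusted p = 1 each, edgeR). In ZNF528 (52397849 to 52418412, plus strand), chosen after its values were seen, the direction was opposite, with an average effect of 0.70 ± 0.12 (adjusted p = 0.0974, edgeR). It was 3.12, 3.28, 2.82 and 3.18 CPM in KO libraries of day 0 and 1.91, 1.99, 2.12 and 1.56 CPM in WT libraries. The lines were fully apart, as was the case for 0.537% of all genes above WT. On day 4 levels were 6.64, 6.22, 3.15 and 4.69 CPM in KO libraries and 2.89, 3.42, 2.27 and 2.90 CPM in WT libraries, where KO number 3 made the lines overlap. DESeq2 called ZNF528 in the average, with an adjusted p of 0.00204.

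SPATA22, a protein of meiotic recombination on chromosome 17 (3440019 to 3513852, minus strand), was 3.55, 4.65, 3.56 and 2.94 CPM in KO libraries of day 0 and 0.889, 2.67, 2.38 and 2.46 CPM in WT libraries. By day 4 it was 2.56, 2.95, 2.22 and 2.501 CPM in KO libraries and 1.504, 1.26, 1.79 and 2.12 CPM in WT libraries, again apart. On day 2 levels were 1.33, 1.95, 1.01 and 1.24 CPM in KO libraries and 0.425, 1.08, 1.181 and 1.13 CPM in WT libraries, where KO number 3 overlapped. The effect was 0.54 ± 0.34 at day 2 and 0.62 ± 0.30 at day 4 (adjusted p = 1 each, edgeR). ASPA, which lies within SPATA22 on the other strand, had at most 0.318 CPM in any KO library and 0.224 CPM in any WT library of these days. MID1IP1, a regulator of fatty acid synthesis on the X chromosome, was also chosen after its values were seen. It had effects of -0.38 ± 0.17, -0.54 ± 0.17 and -0.41 ± 0.17 on the 3 days and an average of -0.44 ± 0.10 (adjusted p = 0.495, edgeR). Its antisense gene MID1IP1-AS1 overlaps it, and reads of the 2 cannot be told apart without strand.

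**Figure D4:**
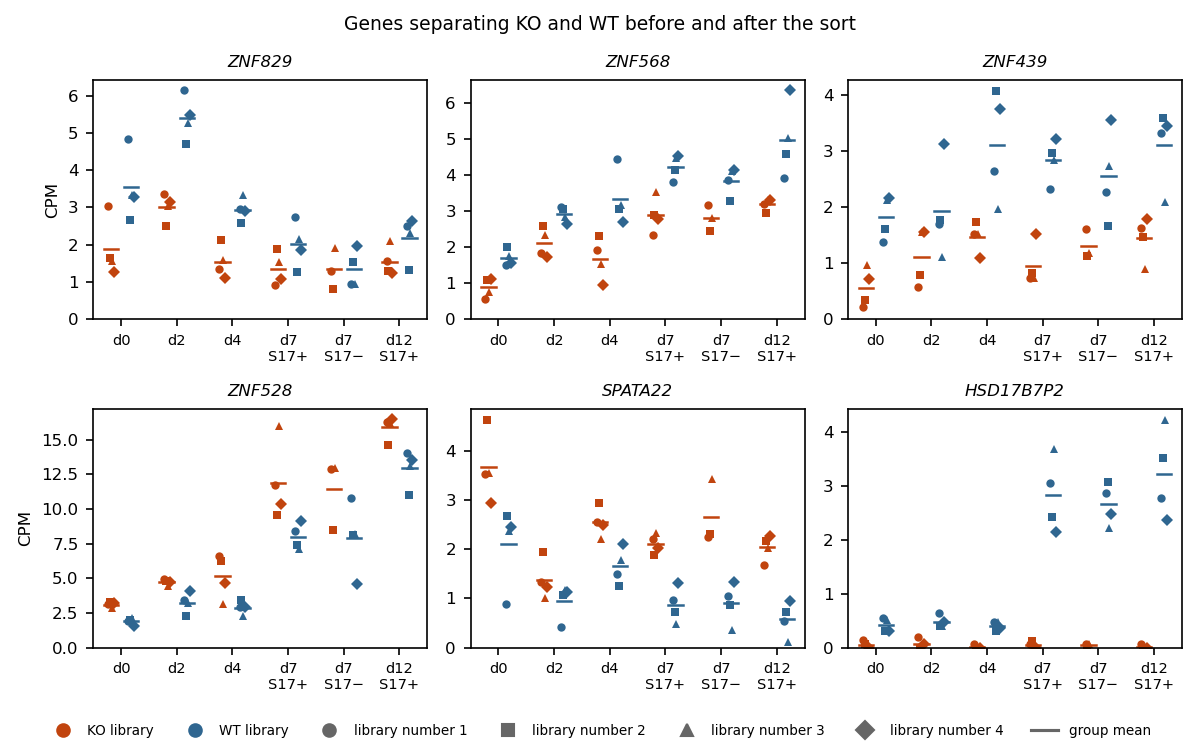
CPM on linear axes of 6 genes in each library at day 0, 2 and 4, in SOX17-positive (S17+) and SOX17-negative (S17−) fractions of day 7 and in the SOX17-positive fraction of day 12. KO is left of WT, with lines for group means. ZNF568, ZNF439 and HSD17B7P2 are lower and SPATA22 is higher in KO at the stages used to choose them, and ZNF829 is apart at day 2 and day 4, with KO between 1.09 and 3.36 CPM.

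At day 2 the genes with an unadjusted p under 0.05 were mostly higher in KO cells, 687 against 286 lower, and the higher ones had low GC content. With offsets corrected for GC content the split was 298 higher and 202 lower. HMGB1, an abundant chromatin protein, had the smallest p of that day. It was 75.7, 72.7, 76.5 and 57.1 CPM in KO libraries and 36.9, 41.5, 46.8 and 33.4 CPM in WT libraries, an effect of 0.83 ± 0.18 (adjusted p = 0.495, edgeR). On day 4 levels were 55.7, 47.8, 44.7 and 30.9 CPM in KO libraries and 73.7, 62.7, 55.8 and 63.8 CPM in WT libraries, an effect of -0.51 ± 0.18. GMFB, a regulator of actin branching, likewise had an effect of 0.79 ± 0.18 at day 2 and of -0.44 ± 0.18 at day 4. All KO libraries lay above all WT libraries at day 2 and below them at day 4 for both genes, which were chosen after their values were seen. Of all genes 4.42% lay above WT without overlap at day 2, and 1.46% lay below at day 4. The GC content of HMGB1 is 37.9% and that of GMFB 33.4%, against a median of 48.7% over all tested genes. The difference between the effects of day 4 and day 2 was -1.34 ± 0.25 for HMGB1 and -1.23 ± 0.25 for GMFB, neither called (adjusted p = 0.0919 each, edgeR).

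Ordered by GC content in 10 bins of 1655 genes each, the median effect at day 2 was 0.224 in the bin of lowest GC, with a median GC of 37%, and -0.138 in that of highest GC, at 64.1%. At day 0 the same bins had medians of -0.0898 and 0.0497, and at day 4 of -0.130 and 0.105. The genes with an unadjusted p under 0.05 that were higher in KO cells at day 2 had a median GC of 38.4%, and those lower 55.5%, against 48.7% over all tested genes. Each library was also set against the mean of its day. The difference between the lowest and the highest bin was then between 0.081 and 0.232 in the KO libraries of day 2. It was between -0.217 and -0.114 in the WT libraries. With offsets that remove each library's relation to GC, chosen after seeing the data, the genes with an unadjusted p under 0.05 numbered 500 at day 2 (2.31%), against 973 without, and 740 at day 4 (3.42%), of which 481 were higher and 259 lower, against 987 without, of which 554 were higher and 433 lower. HMGB1 then had effects of 0.64 ± 0.16 at day 2 and -0.38 ± 0.16 at day 4. GMFB had 0.60 ± 0.13 and -0.32 ± 0.13 on these days, and ZNF829 an average of -0.89 ± 0.15. What makes the relation to GC differ between the lines on each day was not tested.

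**Figure D5:**
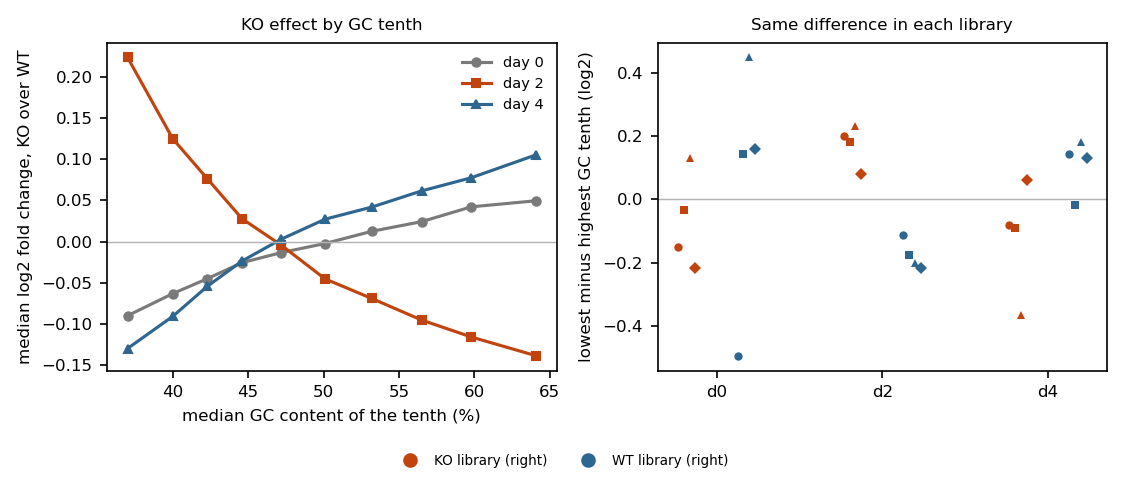
Left, the median log2 fold change of KO over WT on each day (y axis) in 10 bins of genes ordered by GC content (x axis, %). Right, the log2 difference between the lowest and the highest GC bin in each library, relative to the mean of all libraries of the same day. This places the libraries of each day around 0, and at day 2 all KO libraries lie above 0 and all WT libraries below it.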

How the data were processed

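Total RNA of unsorted cells was sequenced, and the authors deposited counts of fragments per gene for each library. Per the submitters' processing notes the tools included cutadapt 1.18, featureCounts and R 3.2.2, and the build was GRCh38; the sources used here do not give the aligner. Of 58302 gene identifiers, 58039 were named from GENCODE release 29 and 263 had no name there. Libraries were grouped by title.

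The deposited counts were tested with the quasi-likelihood test of edgeR 4.0.16 in R 4.3.3, with TMM scaling, over 24 libraries and with 1 mean per line and day. Low genes were removed by filterByExpr, set to a count of at least 10 and a total of at least 15, and p-values were adjusted by Benjamini-Hochberg over all 21612 tested genes. Levels in CPM were computed on 1 scale over 47 libraries of 6 stages. The procedure was tested on simulated counts, drawn independently for each library without outlying libraries or a relation to GC content. How the test behaves under those features of the data was not tested. Exact permutation tests used log2(CPM + 0.5). Standard errors were the size of the effect divided by the square root of its F statistic from the edgeR fit. Intervals of effects come from these approximate errors, and limits at 0 counts cover counting error only.

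Alternatives used limma 3.58.1, DESeq2 1.42.0 and sva 3.50.0, other scalings and filters, a replicate block, libraries left out and offsets corrected for GC content. At day 0, KO and WT libraries of the same number had correlations of 0.774, 0.454, 0.416 and 0.232, taken from the data and not from the labels. Number 1 deviated in both lines together. Among numbers 2 to 4, libraries of different numbers had correlations from 0.184 to 0.304. Each KO library correlated most with the WT library of its number, while WT number 4 correlated most with KO number 3. In the titles, libraries of 1 number carry consecutive library numbers over both lines and all 3 days, 31264 to 31269 for number 1. The labels do not say what the numbers stand for. The main fit did not use the numbers. The replicate block changed no call at day 0.

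The members and lists were chosen with earlier results of these data known. Named were RUNX1, RUNX2, RUNX3, CBFB, SOX17, list members, called genes, genes that never overlapped between KO and WT on the 3 days, and genes apart at every other stage. Genes outside this rule are given as chosen after their values were seen.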

Additional observations from a re-analysis of the deposited data

Results flagged for a closer look

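In groups of 4 libraries with a mean of at least 1 CPM, the highest or lowest library was compared with the other members of its group by Dixon's ratio. Of 218 groups 19 exceeded its 95% limit, in 17 genes. Chance gives about 1 in 20 groups where groups are independent and values normal, but these groups share their libraries. At day 0 the single library that stood apart was number 1 of its line in every case. It was at 24.8 CPM in KO and 27.2 CPM in WT cells for FOS, an immediate early gene, and at 109 CPM in WT cells for EGR1, another. ETV2, a factor of the earliest endothelium, reached 4.12 CPM in KO and 4.31 CPM in WT cells. LMO2 reached 3.05 CPM and SOX2 319 CPM in KO cells of day 0. In WT cells of day 0 RUNX1 reached 7.86 CPM, while NANOG was lowest at 16.1 CPM and SPATA22 at 0.889 CPM.

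At day 2 the lowest KO library was at 312 CPM for HAND1 and at 0.254 CPM for SPI1. In WT cells of day 2 HSD17B7 was lowest at 5.10 CPM, and CXCL5 and SPN, the sialophorin CD43, were highest at 3.24 and 1.42 CPM. In KO cells of day 4 the library apart was at 87.2 CPM for GATA2, 10.8 CPM for GFI1, 16.9 CPM for RUNX3 and 5.08 CPM for ITGA2B, the integrin CD41.

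HMGB1 and GMFB lay on opposite sides of WT on 2 days. The KO mean of HMGB1 was 70.5 CPM at day 2, all KO libraries above WT, and 44.8 CPM at day 4, all below WT. For GMFB the KO means were 181 CPM and 131 CPM, with the same placement. Such placement held for 4.42% of all genes above WT at day 2 and for 1.46% below WT at day 4. The difference between the days was not called (adjusted p = 0.0919 for each gene, edgeR).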

How the results depend on the processing

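The count of called genes at day 0 stayed at 0 in every alternative run. At day 2 it was 143 when the 8 libraries of that day were fitted alone and 15 with DESeq2. At day 4 it was 1 with the replicate block within each day, 1 with 2 surrogate variables, 2 with DESeq2 and 1 with GC-corrected offsets and the block. For the average it was 1 with median-of-ratios scaling, 2 without the filter on low counts, 1 with the block within each day, 1 with the block shared over the days, 5 with DESeq2, 1 with limma-trend on log2 CPM and 1 with GC-corrected offsets and the block. For day 4 minus day 2 it was 106 with the block within each day and 165 with DESeq2. The cause of these differences was not tested. Limma-trend and the GC-corrected fits were chosen after seeing the data; GC-corrected offsets without the block gave 0 calls in all 7 tests. Same-numbered libraries had correlations between 0.0382 and 0.23 at day 2 and between -0.0309 and 0.565 at day 4. KO number 4 and WT number 3 of day 4 had 0.588, so the numbers do not clearly pair these libraries.

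Leaving out 1 library at a time gave 0 to 3 calls at day 4 (3 and 2 with KO library 1 or 3 left out, and 1 with WT library 2 left out), 0 to 1 for the average and 0 to 37 for day 2 minus day 0, the highest without WT number 1 of day 0. It gave 0 calls at day 2, for day 4 minus day 2 and for day 4 minus day 0. The average had 1 call without WT number 1 of day 2, KO number 1 or WT number 2 of day 0, or KO number 2 or 3 of day 4. The effect of RUNX1 at day 2 ran from -0.88 to 0.23, CDH5 at day 4 from -0.86 to 0.33 and TAL1 at day 4 from -0.82 to 0.0613. Without both libraries that stood apart at day 4, CDH5 was 0.30 and TAL1 0.0356. The difference in the RUNX1 effect between day 7 and day 4 ran from -1.52 to -0.50. The separations of the genes apart at the other stages numbered 6 to 7 with 1 library left out. In these runs 4 to 5 genes were chosen, so the possible total changed too. With a mean log2 CPM of at least 1, which left 1 gene, there were 2 separations. Limma-trend on the authors' log2 values was not run. Of the single-gene results, 426 kept direction and side of the threshold, 23 gained a call and 13 turned sign. At these depths H19 and HSD17B7P2 rest on few counts.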
